A study of Mus musculus with 5 samples.

Results

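Cytoplasmic ribosomal proteins are the protein parts of the ribosome, the particle that translates messenger RNA in the cytosol. The 84 genes described here carry the mouse symbols Rpl or Rps followed by a number, the stalk symbols Rplp0, Rplp1 and Rplp2, or Rpsa, without the S6 kinases and without features marked as pseudogenes. They comprised 48 genes of the large subunit, 33 of the small subunit with Rpsa among them, and 3 of the stalk, out of 38166 features in the tables of stem and progenitor cells and 34315 in those of granulocytes. In 3 of the 84 the files merged the gene with a neighbour or pseudogene into 1 feature, which holds Rpl30, Rpl13a or Rpl34. Another 7 were paralogs, diverged second copies of a ribosomal protein gene: Rpl3l, Rpl7l1, Rpl10l, Rpl22l1, Rpl39l, Rps27l and Rps4y2. Fau, which encodes a small subunit protein as a fusion, fell outside the symbols and was read with the other translation genes.

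The data were 5 polyA-selected RNA sequencing libraries of C57BL/6 mice. Granulocytes were Gr1+ bone marrow cells of the 12 month group, sequenced as 2 technical replicates of 1 biological sample, so that n = 1. The other 3 libraries held KSL cells, the c-Kit+, Sca-1+, lineage-negative bone marrow fraction that contains blood stem cells and early progenitors. Sca-1+ cells of mice injected with 5-FU, a drug that kills dividing cells, had been transduced with a knockdown retrovirus, cultured with mSCF and mTPO, and sorted as KSL cells positive for GFP. This preparation was shared by a Control-KD library, a LncHSC-1-KD library and a LncHSC-2-KD library, called control, LncHSC-1 and LncHSC-2 here. The levels of the 2 targeted long non-coding RNAs were not analysed here. No group of KSL cells had a replicate, so every difference below is between 2 libraries and carries no test.

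Estimated depths of the KSL libraries were 21018469 reads for control, 24145600 for LncHSC-1 and 19934925 for LncHSC-2. The granulocyte tables held rounded, scaled counts that summed to 40414961 and 40394825. All 8 KSL markers stood at 5 FPKM (fragments per kilobase of transcript, scaled to library depth) or more in every KSL library, and all 8 granulocyte markers did so in the granulocytes. Summed over 6 B cell markers the level was 79.7 FPKM in the LncHSC-1 library against 47.3 in control and 48.3 in LncHSC-2, and over 5 monocyte and dendritic cell markers it was 55.3 against 30.9 and 32.7. In each KSL library only 1 monocyte or dendritic marker reached 5 FPKM, and it held 51.3 FPKM of the sum in LncHSC-1, 27.4 in control and 29.5 in LncHSC-2. No B cell, monocyte or dendritic marker was at 0 in a KSL library. The 4 megakaryocyte markers summed to 495 FPKM in control, 634 in LncHSC-1 and 609 in LncHSC-2, with none at 0. The sums of 6 erythroid markers were 82.2, 87.9 and 64.1, with none at 0. Of these 6, only 1 reached 5 FPKM in each library, at 80.2, 85.8 and 61.8. The T and NK cell markers summed to between 52.6 and 56.6 FPKM, with Cd3e at 0 in both knockdown libraries and Cd3d in LncHSC-2. Only 1 of them reached 5 FPKM in each KSL library, at 56.0 in control, 55.2 in LncHSC-1 and 51.8 in LncHSC-2. In the granulocytes 4 of 6 erythroid markers (sum 206 FPKM) and 4 of 5 monocyte and dendritic markers (sum 107) reached 5 FPKM. So did 2 of the 8 KSL markers and 2 of the 6 T and NK cell markers, but no B cell or megakaryocyte marker. The part of these cells in the values below was not tested.

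Each mature ribosome holds 1 copy of most of these proteins, and the stalk proteins Rplp1 and Rplp2 are present in more copies. Their mRNAs are short and abundant, and typically begin with a C followed by a run of pyrimidines, the terminal oligopyrimidine tract, through which mTOR signalling sets their translation. Loss of 1 copy of any of several of these genes causes Diamond-Blackfan anaemia in people, a failure of red cell production, and translation in blood stem cells is kept low. Mammalian genomes also hold very many processed pseudogenes of ribosomal protein genes, reverse-transcribed copies without introns. A read from the coding part of such a gene can match more than 1 place in the genome.

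Runs of pyrimidines were more frequent around the annotated starts of the members than around those of other genes, and the windows below show 5 members named in the later results. In the RefSeq promoter table (GRCm38.p6), 63 member genes had an entry. A C followed by at least 7 bases that are each C or T was present on the gene's own strand within the 100 bases around an annotated start in 52 of the 63, or 82.5%, against 32.0% of the 27025 genes in the table. On the opposite strand 20.6% of the member genes and 34.4% of all genes held such a run. A C at the annotated start base itself, with at least 4 pyrimidines after it, was found in 20.6% of the member genes and 3.01% of all genes. A match describes the letters in this window only. Of the members classed below by their copied coding sequence, 18 of 21 fully copied and 33 of 41 others held the longer run. Each line gives 15 bases before and 15 from the annotated start, 5′ to 3′ on the gene's strand, with the longest run of at least 5 C or T that begins with C in capitals. Rpl22 has a pair of annotated starts, both shown.
Rpl15, chr14:18270972-18271001, minus strand: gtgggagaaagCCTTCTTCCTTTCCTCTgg
Rpl28, chr7:4792950-4792979, plus strand: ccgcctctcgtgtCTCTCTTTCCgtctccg
Rps6, chr4:86857353-86857382, minus strand: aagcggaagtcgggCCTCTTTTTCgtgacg
Rpl22, first entry, chr4:152325711-152325740, plus strand: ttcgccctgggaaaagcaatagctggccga
Rpl22, other entry, chr4:152324421-152324450, plus strand: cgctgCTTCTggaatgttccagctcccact
Rpl22l1, chr3:28805493-28805522, plus strand: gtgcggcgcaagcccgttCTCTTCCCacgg
The runs were 17 bases long in Rpl15, 10 in Rpl28 and Rps6, and 8 in Rpl22l1, where the run began after the annotated start. At Rpl22 no such run lay in the first window and 1 of 5 bases, before the start, in the other.

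The coding sequences divided the members further. For 83 members a coding sequence was taken from GENCODE M21, and the share of its 75-base windows that occur letter for letter in a transcript of another annotated gene was counted. In 25 members at least 99% of the windows did, and these are called fully copied. The measure was chosen after the levels had been seen. Rpl10a, at 99.5%, was the lowest of the 25, and Rpl9, at 97.6%, was the highest of the others long enough to be classed. Windows of 36, 50 and 100 bases gave 32, 29 and 25 such members, which held the 25 in each case. Rpl41, whose coding sequence of 75 bases is under the 150 required, was kept with the others, and Rps4y2 had no match. The lines below show a stretch of a fully copied and of a partly copied member beside its closest copy, with bases that differ within a pair in capitals. Rps27, a zinc-finger protein of the small subunit, and Rps27rt on chromosome 9 were identical over coding bases 1 to 60. Rpl4, a large subunit protein, and its closest copy Gm5835 on chromosome 1 differed at 4 of the 60 bases from coding base 481 to 540.
Rps27: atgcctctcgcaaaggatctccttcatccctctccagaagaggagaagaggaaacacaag
Rps27rt: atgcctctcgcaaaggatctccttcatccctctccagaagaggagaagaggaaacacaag
Rpl4: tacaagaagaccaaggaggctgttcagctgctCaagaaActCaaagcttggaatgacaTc
Gm5835: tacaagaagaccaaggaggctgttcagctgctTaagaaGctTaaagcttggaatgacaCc

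Ribosomal protein genes were among the most abundant transcripts of the KSL cells, but the family fell into a high and a low set. In the control library the median member stood at 323 FPKM, the highest at 2832, and 57 of 84 at 100 FPKM or more. Together the 84 took 3.61% of the estimated reads in control (exact binomial 95% interval 3.60 to 3.62), 3.56% in LncHSC-1 (3.55 to 3.57) and 3.87% in LncHSC-2 (3.86 to 3.88). These intervals cover counting error only. As a share of all FPKM, which weights short transcripts more, they took 11.9%, 11.9% and 12.6%.

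Of the 27 members below 100 FPKM in control, 22 were fully copied and 5 were paralogs. The fully copied members' median in control was 21.9 FPKM, from 3.05 to 263, with 3 of the 25 at 100 or more. The 52 members that were neither fully copied nor paralogs had a median of 805, from 109 to 2832, and none was below 100 FPKM in any KSL library. The medians of the fully copied members were 19.4 FPKM in LncHSC-1 and 22.6 in LncHSC-2, against 793 and 869 for the 52. Across the 83 members with a coding sequence, the copied share and the control FPKM had a Spearman rho of -0.60. The points share 1 library and its mapping, which the sources used here do not describe, and the part of mapping in these levels was not tested. An FPKM of a fully copied member is therefore uncertain as a measure of its mRNA.

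**Figure D1:**
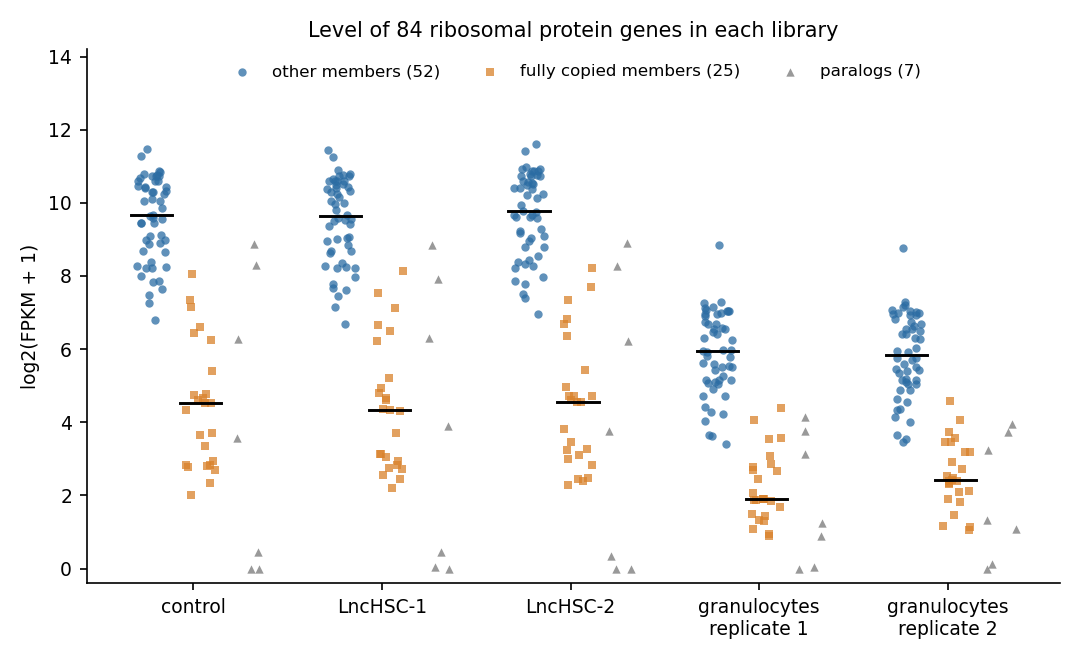
Level of each of the 84 members, as log2(FPKM + 1), in the 5 libraries; points are genes, blue circles are 52 other members, orange squares 25 fully copied members and grey triangles 7 paralogs, and black bars are medians. The orange medians lie far below the blue ones in every library (21.9 against 805 FPKM in control).

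**Figure D2:**
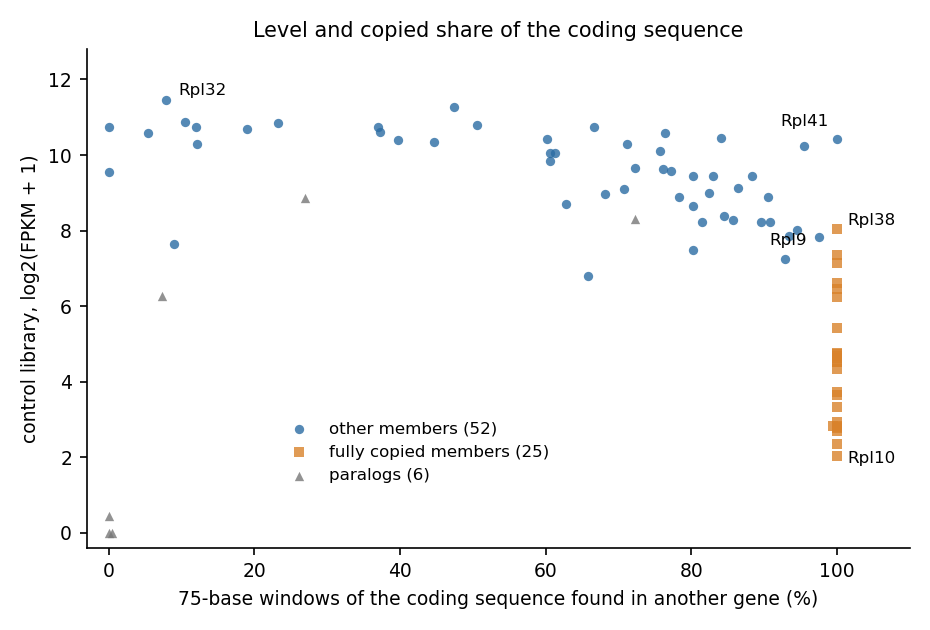
Control level, as log2(FPKM + 1), against the percentage of 75-base coding windows found in another gene, for 83 members coloured as in the plot of levels by library. Blue members with a higher copied share tend to lie lower, and the orange members, at 99% or more, spread from 3.05 to 263 FPKM.

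The highest members came from both subunits. Rpl32, a large subunit protein (mm9 chr6:115755532-115758761, as the files place it), stood at 2832 FPKM in control, 2774 in LncHSC-1 and 3113 in LncHSC-2, the highest member in each of these libraries. The stalk protein Rplp1, which helps to recruit translation factors, followed at 2466, 2440 and 2741 FPKM. Rpl4 stood at 1861, 1776 and 1955. Rps15, of the small subunit, stood at 1853, 1906 and 2034. Rpl39, one of the smallest ribosomal proteins, stood at 1773, 1549 and 1927. In all 5 of these genes the LncHSC-2 library held the highest value.

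The other stalk proteins and Rpsa lay in the same range as the core members. Rplp0, the base of the stalk, stood at 1346 FPKM in control, 1319 in LncHSC-1 and 1437 in LncHSC-2. Rplp2, the partner of Rplp1, stood at 1287, 1376 and 1511. Rpsa, a small subunit protein also known as the laminin receptor, stood at 477, 461 and 521. Of these 3, only Rplp2 was higher in LncHSC-1 than in control.

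Among the members past the floor used for ratios, a mean of 5 FPKM over the 3 KSL libraries, the 5 lowest were all fully copied. Rpl12 stood at 5.88 FPKM in control, 5.68 in LncHSC-1 and 4.49 in LncHSC-2. Rpl28 stood at 6.02, 6.07 and 7.55. Rpl27 stood at 6.07, 6.74 and 6.96, all large subunit proteins.
The other 2 were Rpl10a, at 6.08, 5.62 and 6.14 FPKM, and Rps27, at 6.69, 7.71 and 8.53. Another 3 fully copied members missed the floor: Rpl10 at 3.05, 3.63 and 3.90 FPKM, Rps12 at 4.10, 4.94 and 4.25, and Rps13 at 5.44, 4.43 and 4.60. All 8 encode core ribosomal proteins.

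For some fully copied members the annotated copy was itself listed with a level above that of the member. The closest copy was listed as a feature for 13 of the 25. Gm14303, the copy of Rps29, stood at 289 FPKM in control, 309 in LncHSC-1 and 357 in LncHSC-2, whereas Rps29, a small subunit protein, stood at 19.2, 18.6 and 22.6. Rpl10a-ps1 stood at 90.2, 98.6 and 100.0 FPKM, above Rpl10a in each library. The copies of Rpl10, Rpl13, Rpl15, Rpl17 and Rpl27 were listed below 1 FPKM in all KSL libraries. Other copies of these members were not looked up. In all, 125 features were named as ribosomal pseudogenes, of which 10 stood at 5 FPKM or more in control, 11 in LncHSC-1 and 9 in LncHSC-2. In the granulocytes, whose FPKM were scaled separately, 1 did.

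Rps4y2, which the files place on chromosome 6, overlaps Tmtc1, and no source used here states whether the counting used strand. Several core members also overlap another feature, among them Rpl32 with Cand2, Rpl5 with Fam69a and Rps25 with Ccdc84, so their reads could not be assigned with certainty. Rpl29, one of the 52 at 310 FPKM in control, is placed on chromosome 1 by the files and on chromosome 9 by GENCODE. Its FPKM may therefore belong to another locus than the coding sequence that was classed. The model length entered the FPKM as well. The model of Rps15a, the lowest of the 52 at 109 FPKM in control, spans 5129 bases for a coding sequence of 390, and in 4 members the model was more than 4 times the coding length.

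The paralogs were expressed in a restricted way. Rps27l, a relative of Rps27 known as a p53 target, stood at 465 FPKM in control, 457 in LncHSC-1 and 482 in LncHSC-2. Rpl22l1, the paralog of Rpl22, stood at 313, 239 and 309. Rpl7l1, a relative of Rpl7, stood at 76.7, 77.7 and 73.8. Rps4y2 stood at 10.9, 14.0 and 12.6 FPKM. Rpl3l, known from striated muscle, and Rpl10l and Rpl39l, known from testis, were at 0.368 FPKM or below in control. Rpl10l was listed at 0 in all 5 libraries. Coding sequence identity with the parent was 61.8% for Rpl7l1, 71.2% for Rpl22l1, 74.3% for Rpl3l, 76.2% for Rps27l, 84.7% for Rpl10l and 85.0% for Rpl39l.

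Parents of the expressed paralogs differed in how they could be read. Rpl7 stood at 1381 FPKM in control, 1258 in LncHSC-1 and 1455 in LncHSC-2, far above Rpl7l1. Rpl22 stood at 198, 194 and 218 FPKM, below its paralog in each KSL library, but this order rests on model length. The Rpl22 model has 2036 bases and held 9441 estimated reads in control, and that of Rpl22l1 has 473 bases and held 2505. Rps27, the fully copied parent of Rps27l, was listed at under 10 FPKM, so no order between that pair could be read. Rps4x, on the X chromosome, stood at 1704, 1555 and 1767. Rpl3 stood at 230, 219 and 251.

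In the granulocytes the same genes took a small part of the library. The 84 members held 0.402% of the counts in replicate 1 and 0.394% in replicate 2, and 0.934% of all FPKM on average. The median member stood at 29.5 FPKM (mean of both technical replicates, n = 1). At 5 FPKM or more were 65 of 84, beside 79 in control, 78 in LncHSC-1 and 77 in LncHSC-2. The granulocyte and KSL tables were scaled separately, and cell type, preparation and experiment differ together, so no fold between them is given. For the same reason 5 FPKM is not a like cut in both, and the share of all features that reached it was not computed. In a bulk sample, fewer cells of a type and less RNA per cell cannot be told apart.

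The order of the members was much alike in both. Across the 84 genes the control and granulocyte FPKM had a Spearman rho of 0.95, and 0.89 over the 58 with a coding sequence that was not fully copied, Rpl41 among them. These points share gene models and copied sequence. Rps9, a small subunit protein, led the granulocytes at 458 and 434 FPKM in the replicates. In control Rps9 had rank 6, at 1726 FPKM.
The fully copied members were low here too, with a median of 3.63 FPKM against 58.3 for the 52. The 3 stalk genes stood between 106 and 132.

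Members that ranked lower among the 84 in granulocytes than in control were Rpl15, 62nd in control and 79th in granulocytes, Rpl36a (64th and 81st), Rpl22l1 (43rd and 59th), Rps20 (14th and 30th) and Rps2 (27th and 41st). Rpl22l1 stood at 7.78 and 8.46 FPKM in the granulocyte replicates, below its parent Rpl22 at 11.5 and 11.6. This reverses the FPKM order in KSL cells, which rests on model length. Without length, Rpl22 exceeded Rpl22l1 in both, at 1175 against 184 counts in granulocyte replicate 1 and 9441 against 2505 estimated reads in control. Members that ranked higher in granulocytes were Rps10 (47th in control, 32nd in granulocytes), Rps12 (80th and 65th), Rpl9 (51st and 38th), Rps13 (79th and 66th) and Rps25 (30th and 17th). Rpl15, Rpl36a, Rps12 and Rps13 were fully copied.

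**Figure D3:**
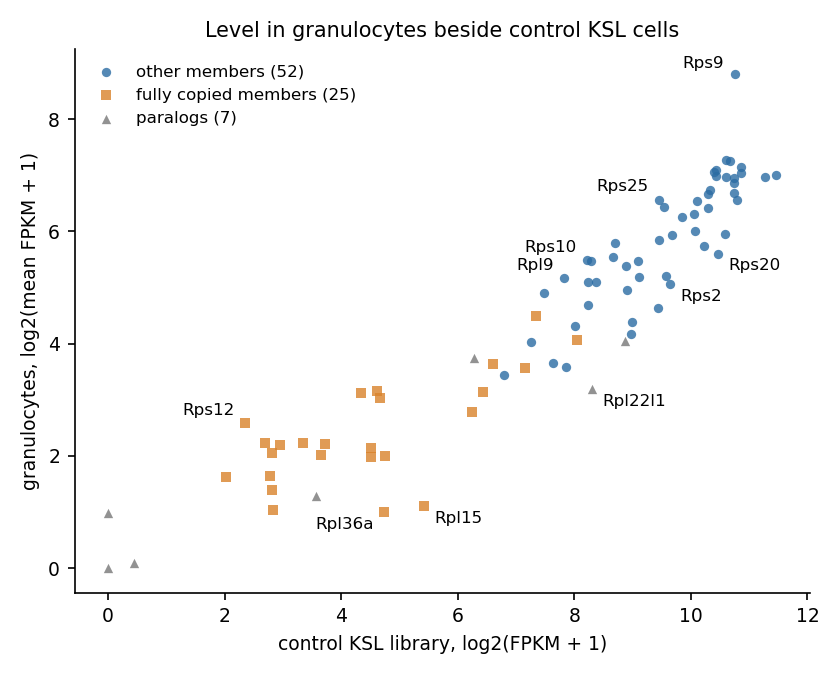
Level of the 84 members in granulocytes, as log2 of the mean FPKM of both technical replicates + 1, against the control KSL library; each point is a gene and colours are those of the plot of levels by library. Rps9 stands above the other members in granulocytes, and Rpl22l1, Rps2 and Rps20 lie low for their control level.

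The 2 technical replicates of the granulocyte sample differed in the fully copied members. Replicate 2 was higher in 25 of 25, with a median ratio of 1.29 and a range of 1.01 to 2.36, and 15 were higher by at least 25%. Of all 10050 features at 1 FPKM or more, 49.3% were higher in replicate 2 and 2.78% higher by at least 25%. Among features other than members within the level range from 1 FPKM to that of the highest fully copied member, 3.39% of 7678 were higher by at least 25%. The other 55 members at 1 FPKM or more had a median ratio of 0.973, from 0.870 to 1.09, and 14 were higher in replicate 2.

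Rps23, a protein of the decoding centre, stood at 1.82 FPKM in replicate 1 and 4.28 in replicate 2, a ratio of 2.36. Rpl10, which is needed for the joining of the subunits, stood at 1.45 and 2.72. Rps29 stood at 5.48 and 9.97. Rps27a, made as a fusion with ubiquitin, stood at 5.88 and 9.93. Among 13 ribosomal pseudogene features at 1 FPKM or more, 10 were higher in replicate 2, with a median ratio of 1.15. Since both files came from 1 biological sample, these ratios show a technical difference that fell on the fully copied members, and which step it came from was not tested.

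**Figure D4:**
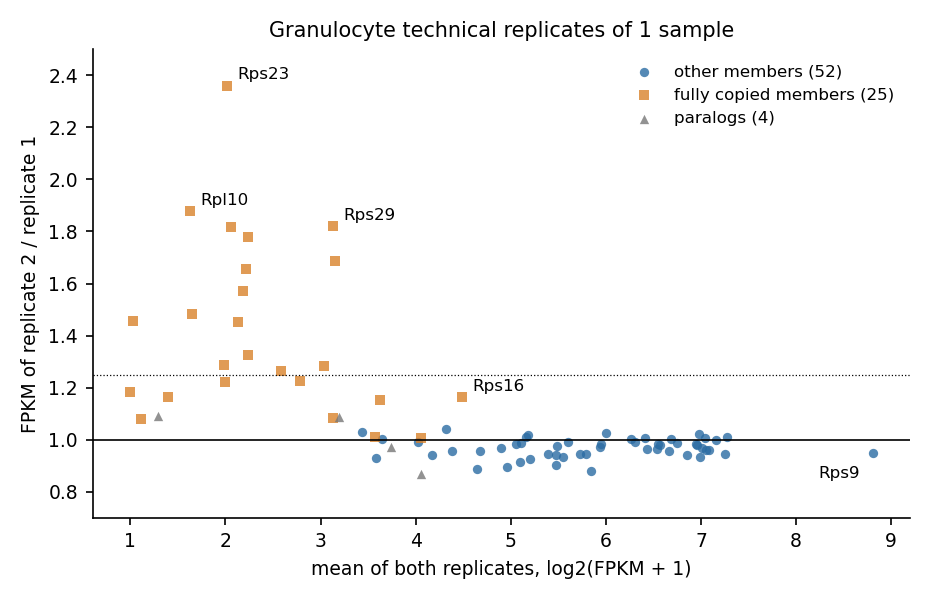
Ratio of FPKM in technical replicate 2 to replicate 1 of the granulocyte sample against the mean level, as log2(FPKM + 1), for members at 1 FPKM or more and all fully copied members; lines mark equal values and, dotted, 25% more in replicate 2. All 25 orange points lie above 1, up to 2.36 for Rps23, while the blue points stay near 1.

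In the LncHSC-1 library the median ribosomal protein gene lay slightly below control. For each feature past the floor the difference was computed as the log2 ratio of (FPKM + 1), which understates the change of low genes. The floor kept 9153 features and 78 of the 84 members. The median of the 78 was -0.03, beside -0.02 over all features, and 23 were higher and 55 lower, against a background of 43.8% higher and 56.1% lower. With FPKM centred on the median of all features, the median became -0.0088 and 34 of 78 were higher. A difference was called past 25% where the larger of the values, each with 1 FPKM added, exceeded the smaller by at least 25%. This held for 3 members, beside 5.83% of all features, and none passed 2-fold, beside 1.06% of all features.

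The members past 25% in LncHSC-1 were Rpl17, Rpl22l1 and Rps4y2. Rpl17, a large subunit protein and fully copied, stood at 7.83 FPKM against 12.2 in control (log2 ratio -0.57, 95% interval of the read ratio -0.96 to -0.31). In LncHSC-2 it stood at 9.97 FPKM (-0.26, -0.61 to 0.03), an interval that includes no difference. Rpl22l1 stood at 239 FPKM against 313 (-0.39, -0.47 to -0.31), and LncHSC-2 stayed near control at 309. The parent gene Rpl22, whose protein is known to lower Rpl22l1 mRNA, was at -0.03 (-0.07 to 0.01). Rps4y2 stood at 14.0 against 10.9 FPKM (0.34, 0.11 to 0.62).

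Next in order below control were Rpl5 (-0.30), Rpl15 (-0.20) and Rpl39 (-0.20), and above control Rps28 (0.26), Rps16 (0.18), Rps27 (0.18) and Rpl27 (0.13). All but Rpl39 were fully copied. Rpl5, which with Rpl11 and the 5S rRNA can bind Mdm2, stood at 7.25 FPKM against 9.13. Rps28, a small subunit protein, stood at 29.5 against 24.5 FPKM, and its interval of -0.10 to 0.65 includes no difference. So do those of Rps27 (-0.24 to 0.84) and Rpl27 (-0.26 to 0.57), whereas those of Rpl5, Rpl15, Rpl39 and Rps16 do not.

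In the LncHSC-2 library most members stood slightly above control in FPKM, but this direction rests on the scaling. The median of the 78 was 0.13, beside 0.00 over all features, and 71 were higher, against a background of 52.1%, whereas in the deposited count columns the median was -0.025 and 27 of 78 were higher. Those columns set the typical feature of LncHSC-2 lower, with a median-of-ratios factor of 0.941 against 1.04 for control. Over all features they gave a median log2 ratio of -0.14, with 969 of 9153 higher. Centred on the median of all features, the count columns gave 0.12 with 70 higher. Relative to the median of all features most members were thus higher. Centring removes any factor that all features of a library share, so centred FPKM and centred count columns agree nearly by construction.

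The shift was small, and the fully copied members spread more widely than the others. In FPKM 2 of 78 members passed 25%, where 3.93% of all features did, and none passed 2-fold, where 0.951% did. Of the 55 members past the floor with a coding sequence that was not fully copied, 53 were higher, with a median of 0.12 and a range of -0.05 to 0.23. Of the 22 fully copied members past the floor 17 were higher, with a median of 0.17 and a wider range, -0.32 to 0.34. Rpl12, the lowest, held 71 estimated reads in control and 51 in LncHSC-2, and Rps16, the highest, 1862 and 2221. The part of counting error in this range was not tested. Medians by subunit were 0.12 for 44 large subunit members, 0.13 for 31 small subunit members and 0.15 for the 3 stalk members.

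Feature length moved with the differences of both knockdown libraries from control. Of the 78 members 50 were among the 913 features with the shortest models and 16 among the next 912. In LncHSC-2 the other 863 of the shortest features had a median of 0.07 with 67.8% higher, and the 912 longest had -0.03 with 32.8% higher. Across the 78 members, length and the LncHSC-2 log2 ratio had a Spearman rho of -0.40. For LncHSC-1 against control the other short features had a median of 0.02 with 54.9% higher and the longest -0.04 with 34.1% higher, and rho across the members was -0.36. The median of all 78 members was -0.03 in LncHSC-1, below that of the other shortest features, and 0.13 in LncHSC-2, above theirs. No median was taken for the 50 members among the shortest models, so these sets are not matched in length. Each rho rests on 2 libraries that all its points share, and the part of length in the members' differences was not tested.

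The members past 25% in LncHSC-2 were Rps16 and Rpl12. Rps16, a small subunit protein and fully copied, stood at 206 FPKM against 162 in control, with LncHSC-1 at 184 (0.34 in LncHSC-2, 0.25 to 0.43, in FPKM, and 0.19 in the count columns). Rpl12 stood at 4.49 against 5.88 (-0.32, -0.94 to 0.14), an interval that includes no difference. Rps27 (0.31), Rpl28 (0.28), Rps28 (0.28) and Rpl24 (0.24) followed Rps16, and all were fully copied. The intervals of Rps27 (-0.03 to 1.07), Rpl28 (-0.25 to 0.88) and Rps28 (-0.13 to 0.66) include no difference, and that of Rpl24 was 0.12 to 0.35. At the other end, below Rpl17, Rps6 was at -0.15 (-0.31 to -0.01). Rps6, the target of the S6 kinases, stood at 26.1 FPKM in control, 23.2 in LncHSC-1 and 23.3 in LncHSC-2. Rpl5 (-0.08, -0.29 to 0.12) and Rpl7l1 (-0.05, -0.11 to 0.01) came next, with intervals that include no difference.

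Set against each other without the control library, LncHSC-1 stood below LncHSC-2. The median of the 78 was -0.16 in FPKM, beside -0.03 over all features. There 5 were higher and 73 lower, against a background of 40.4% higher and 59.5% lower. In the count columns the median was -0.0061 with 36 higher, beside 0.12 over all features with 7787 of 9153 higher. Centred, the count columns gave -0.12 with 7 higher. In FPKM 2 members stood past 25%, where 5.82% of all features did, and none passed 2-fold, where 1.15% did. The 2 were Rpl22l1 (-0.37, -0.44 to -0.27) and Rpl27a, a fully copied large subunit protein at 19.5 FPKM in LncHSC-1 and 25.5 in LncHSC-2 (-0.37, -0.55 to -0.21). In the count columns these ratios were -0.21 for Rpl22l1 and -0.24 for Rpl27a. Rpl39 (-0.32), Rpl17 (-0.31) and Rps15a (-0.28) were next, and of these only the interval of Rpl17 (-0.69 to 0.0003) includes no difference. Members highest in LncHSC-1 relative to LncHSC-2 were Rpl12 (0.28), Rps4y2 (0.14), Rpl36a (0.08), Rpl7l1 (0.07) and Rps2 (0.00). The intervals of Rpl12 (-0.18 to 0.88), Rps4y2 (-0.09 to 0.40) and Rpl36a (-0.18 to 0.37) include no difference. So does that of Rps2 (-0.03 to 0.03), whereas that of Rpl7l1 (0.02 to 0.13) does not. Both comparisons with control share that library, so their values are not independent of each other.

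**Figure D5:**
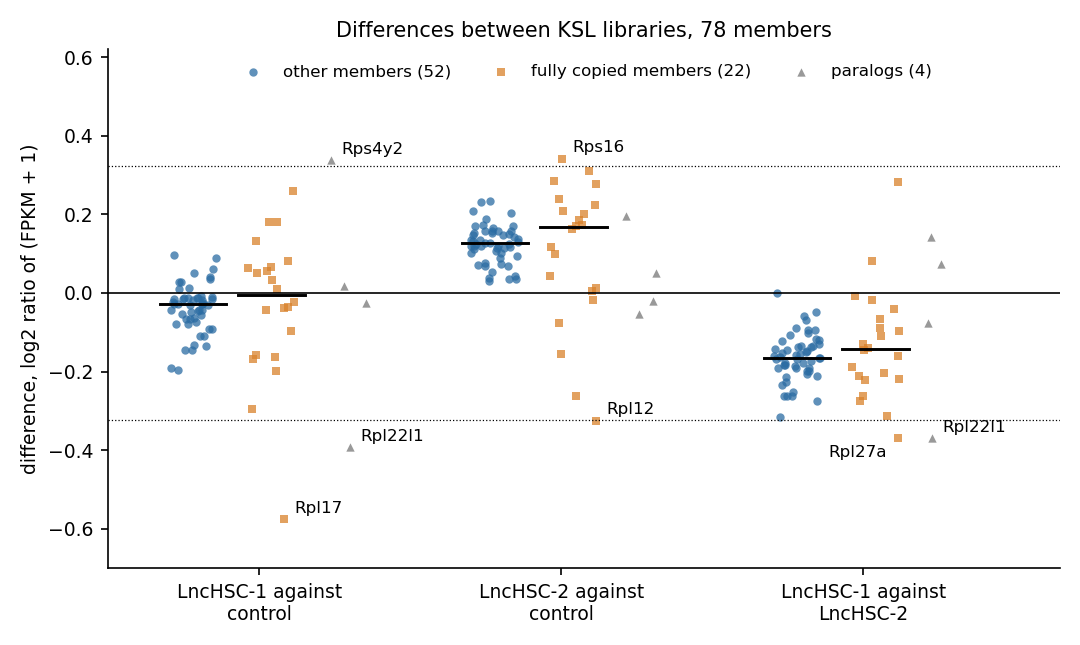
Differences between KSL libraries for the 78 members past the floor, as log2 ratios of (FPKM + 1) in 3 comparisons; points are genes in the colours of the plot of levels by library, bars are medians and dotted lines mark a 25% difference. The blue points lie mostly above 0 for LncHSC-2 against control and below 0 for LncHSC-1 against LncHSC-2, a direction that holds for FPKM and not for the uncentred count columns.

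The genes of Diamond-Blackfan anaemia, which are part of the family, had medians of the same sign as the family in FPKM. Of 13 taken here, 2 were higher than control in LncHSC-1 (median -0.04) and 12 in LncHSC-2 (median 0.17) in FPKM. None was higher in LncHSC-1 than in LncHSC-2 (median -0.20). Over all features 43.8%, 52.1% and 40.4% were higher in these comparisons. In the count columns 2 were higher in LncHSC-1, 8 in LncHSC-2 (median 0.01) and 4 in LncHSC-1 against LncHSC-2 (median -0.06). Of all 9153 features, 4032, 969 and 7787 were higher in those columns. Rps19, the gene most often affected in that disease, stood at 765 FPKM in control, 758 in LncHSC-1 and 861 in LncHSC-2. Rps26 stood at 1068, 1055 and 1204.
In both Rps19 and Rps26 LncHSC-2 held the highest FPKM and LncHSC-1 the lowest. Rps24 stood at 924, 894 and 991 FPKM, Rpl26 at 1253, 1209 and 1345, Rpl35a at 544, 528 and 628, and Rps7 at 257, 252 and 296. Rps10 stood at 298, 304 and 332. Rpl11, fully copied, stood at 141, 138 and 161 FPKM, and Rpl15, also fully copied, at 41.7, 36.2 and 41.8. Among the 13 only Rps10 and Rps28 were higher in LncHSC-1 than in control. Rpl23, whose protein also binds Mdm2, stood at 472, 413 and 496.

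Other genes of the translation system numbered 20. In FPKM 4 of them were higher than control in LncHSC-1 (median -0.08) and 17 in LncHSC-2 (median 0.06), against backgrounds of 43.8% and 52.1%. In the count columns 5 and 2 were higher (medians -0.08 and -0.08), where 4032 and 969 of all 9153 features were. Centred on all features, the count columns gave 6 higher in LncHSC-1 and 15 in LncHSC-2. The elongation factor Eef1a1 stood at 4470 FPKM in control, 4106 in LncHSC-1 and 4600 in LncHSC-2. Tpt1, an oligopyrimidine mRNA, went the other way, at 196, 253 and 187 FPKM (0.37 in LncHSC-1). The initiation factor Eif4b stood at 179, 140 and 179 (-0.35 in LncHSC-1). Fau, which encodes the small subunit protein eS30 as a fusion, stood at 20.7, 21.9 and 27.0 (0.37 in LncHSC-2).

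Of 6 non-coding hosts of small nucleolar RNAs, none was higher than control in LncHSC-1 (median -0.15) and 4 were in LncHSC-2 (median 0.01). The count columns gave 1 higher in LncHSC-2 (median -0.15). Over all features 43.8% and 52.1% were higher in FPKM, and in the count columns 4032 and 969 of 9153. Gas5, in a feature merged with Mir5117, stood at 60.5, 54.8 and 57.5 FPKM. Snhg1 stood at 148, 131 and 149. Mitochondrial ribosomal protein genes, which build the separate ribosome of the mitochondrion, gave medians of 0.02 in LncHSC-1 and 0.06 in LncHSC-2 over 76 features. Of these, 41 and 58 were higher in FPKM and 43 and 9 in the count columns, beside the values over all features just given. Set directly against LncHSC-2, the LncHSC-1 library had 24 of these 76 higher in FPKM and 66 in the count columns. Their medians were -0.05 and 0.10. Over all features 40.4% were higher in FPKM and 7787 of 9153 in the count columns, with medians of -0.03 and 0.12.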

How the data were processed

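RNA sequencing values of 5 libraries were analysed as deposited. The submitters' processing notes name mm9 and DESeq; no source used here gives the aligner, the counter or the annotation release. FPKM values were computed by the authors, per the file headers. The deposited count columns of KSL cells were read as a signal made of reads times 1 library factor, since 91.7% to 92.1% of values up to 20 reads were whole multiples of the value of 1 read (1.08 in control, 0.924 in LncHSC-1, 1.03 in LncHSC-2) within 0.1 of a read. Dividing by it gave the estimated reads. The deposited granulocyte counts were read as a score, scaled and rounded; dividing it by length in kilobases and by 50 M gives their FPKM in both files, so real depth is unknown and no interval is given.

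Log2 ratios used a pseudocount of 1 FPKM and a floor of a mean of 5 FPKM over the KSL libraries. With 1 library per group no test was made. Exact binomial 95% intervals of single ratios rest on estimated reads without pseudocount and cover counting error only. Sizes of 25% and 2-fold were rules of description. The ratio and interval computation was tested on simulated data. Coding sequences were the longest principal ones of GENCODE M21, matched by symbol, and windows were searched on both strands in transcripts of non-overlapping genes. Positions of members are those of the files, in mm9; printed start windows are from RefSeq and coding sequences from GENCODE. Python 3.11.15, pandas 2.3.3, numpy 2.4.6, scipy 1.17.1, biopython 1.88 and matplotlib 3.10.9 were used.

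The members and lists were chosen with earlier results of these data known. Values in every library were taken for the 5 highest and 5 lowest members by control FPKM and by each comparison, the 5 with the largest rank difference each way between granulocytes and control, and members named by role (stalk, paralogs with parents, Rps27a, Diamond-Blackfan genes); other genes were named after their values were seen. Other pseudocounts, floors, scalings and subsets of members were tried as alternatives. B cells, which the series' design text names, were not analysed here. Some genes that this rule takes are not reported by name.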

Additional observations from a re-analysis of the deposited data

How the results depend on the processing

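No paired analysis was possible because each KSL group has 1 library and the 2 granulocyte files are technical replicates of 1 sample. For LncHSC-2 against control the median reversed to -0.025 in the count columns, with 27 members higher, beside 969 of all 9153 features. The median was 0.12 with a pseudocount of 10 FPKM, 0.12 with FPKM centred and 0.12 with count columns centred. For LncHSC-1 against LncHSC-2 it was -0.15 with a pseudocount of 10, -0.15 without a floor, -0.13 with FPKM centred, -0.0061 in the count columns and -0.12 with those centred. For LncHSC-1 against control it was -0.0088 with FPKM centred and -0.0078 with count columns centred.

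Members higher in LncHSC-1 than in control numbered 15 of 61 with a floor of 50 FPKM and 12 of 56 without fully copied members (Rps4y2, which had no coding sequence, stays in this set), an alternative added after seeing the data. Against LncHSC-2 they numbered 36 of 78 in the count columns, where 7787 of all 9153 features were higher. For that comparison they numbered 8 of 83 without a floor, 2 of 61 with a floor of 50 and 3 of 56 without fully copied members. These smaller sets explain part of the lower counts by construction. Counts past 25% rest on few members. For LncHSC-1 against control there was 1 with a pseudocount of 10 and 1 with a floor of 50. For LncHSC-2 against control there were 4 with a pseudocount of 0.1, 1 with 10, 1 with a floor of 50 and 0 without fully copied members. For LncHSC-1 against LncHSC-2 there were 4 with 0.1, 1 with 10, 1 with a floor of 50, 1 in the count columns, 1 without paralogs and 1 without fully copied members. No member passed 2-fold in any of these settings. Shares of all features past 25% or 2-fold were not computed in these settings, nor shares higher at the other floors. Those counts therefore have no background beside them.

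The members' share was 11.9% of FPKM in control, 11.9% in LncHSC-1, 12.6% in LncHSC-2 and 0.934% in granulocytes, and without merged features 3.41%, 3.36%, 3.66% and 0.373% of counts. In granulocytes 29 members reached 50 FPKM. Leaving out a technical replicate gave shares of 0.394% and 0.402%, medians of 28.4 and 30.5 FPKM, and 65 and 64 members at 5 FPKM, without replicate 1 and without replicate 2 in turn. Of 1305 recomputed ratios of single members 1213 stayed within the half-width of their interval, 92 moved further and none past 25% changed sign. Another floor or subset of members cannot alter the ratio of a single member, so those settings count as unmoved by construction. Of the 92, 68 moved in the count columns, where 73 did not, 17 in those centred and 7 with FPKM centred. The cause of these changes was not tested. At low FPKM the read number limits the ratios: Rps27 rests on 51 estimated reads in control.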
